A study of Macaca mulatta with 6 samples.

Results

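The WNT family was examined in RF/6A cells, an established rhesus macaque line described as choroidal endothelial. Its members were taken by gene symbol and comprise the WNT ligands, their secretion factors, the frizzled receptors and co-receptors, the secreted inhibitors, the R-spondins and the axin scaffolds. They number 49 of the 24807 genes in the table. RNA was measured in 3 libraries of cells kept for 4 hours in 50% heat-inactivated human serum, the control, and in 3 libraries of cells kept for 4 hours in 50% normal human serum. Heating destroys complement, so the membrane attack complex, the pore that ends the complement cascade, can form in normal serum only. The cells of both treatments had been grown to confluence on porous inserts and were otherwise handled alike. Active complement cannot be told apart here from other serum factors that do not survive heat. The labels do not say whether replicates were separate cultures, so p-values reflect only how these libraries vary, and that variation may be technical.

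WNT proteins are secreted, lipid-modified signals. The acyltransferase PORCN attaches the lipid and the carrier WLS brings the ligand to the surface. There WNTs bind frizzled receptors. With LRP5 or LRP6 as co-receptor, axin and the rest of the destruction complex are restrained and beta-catenin reaches the nucleus, where it acts with TCF and LEF factors. With ROR1 or ROR2, signalling runs through other routes that shape cell polarity and movement. Secreted frizzled-related proteins and Dickkopf proteins such as DKK1 block the ligand or the co-receptor, and R-spondins raise the amount of receptor at the surface. Frizzled signalling guides the growth and barrier of the vessels of the retina.

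Levels are in FPKM, fragments scaled for transcript length and library depth, so they can be compared between genes, and errors are SD over 3 libraries. In replicates 2 and 3 of both treatments the lowest values were whole multiples of 1 fragment, which put their scaled depth at 14700000 to 17900000 fragments. This was not so in replicate 1 of either treatment, and both replicate 1 libraries stood apart on the second principal component, which held 13.2% of the variance. Of the endothelial markers PECAM1, CDH5, VWF, KDR, TEK, TIE1, CLDN5, ESAM, ENG and FLT1, 4 of 10 reached a mean of 1 FPKM. The defining marker CDH5 was at or near 0 in all libraries, with a mean of 0.0110 FPKM in normal serum. Summed endothelial markers stood between 81.4 and 83.4 FPKM in the control and between 99.3 and 111 FPKM in normal serum. ENG (means of 61.2 and 74.2 FPKM) and FLT1 (14.5 and 17.0 FPKM) made up most of that sum. Among the markers under a mean of 1 FPKM over the 6 libraries, directions were mixed. VWF went from 0.172 to 1.05 FPKM and KDR from 0.370 to 0.105 FPKM. Of 9 mural and fibroblast markers 8 were found, and all 8 reached a mean of 1 FPKM. They summed to between 6850 and 7379 FPKM in the control and to between 3343 and 3512 FPKM in normal serum. Most of that sum was COL1A1 (means of 3870 and 2026 FPKM) and COL3A1 (1888 and 795 FPKM). THY1 went the other way, from a mean of 156 to 209 FPKM, while the other markers found on this list were all lower. Of 8 pigment epithelium and epithelium markers found, 3 reached a mean of 1 FPKM. The 8 summed to between 1149 and 1395 FPKM in the control and to between 2488 and 2750 FPKM in normal serum. Nearly all of that sum was KRT18 (1244 ± 124 and 2538 ± 144 FPKM), with PMEL at 38.3 and 39.0 FPKM, CDH1 at 5.54 and 2.03 FPKM, and KRT8 near 0. The pigment epithelium markers RPE65, RLBP1 and TYR stayed below 1 FPKM in all libraries, and BEST1 stood at 1.12 and 0.740 FPKM. Leukocyte markers, 2 of 5 at 1 FPKM or more (CD68 and CD14), summed to between 8.10 and 10.1 FPKM and to between 9.20 and 10.8 FPKM, with PTPRC near 0 in both treatments. The part of these marker differences in the results below was not tested, and in bulk RNA fewer cells of a type and less RNA per cell cannot be told apart.

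Of the 49 members, 26 reached a mean of 1 FPKM over the 6 libraries, the filter for the test, 15 were detected below that level and 8 were listed at 0 in all libraries. The ligands made up most of the low members: WNT10A, WNT8A, WNT8B and WNT9B were listed at 0 throughout, and WNT2, WNT2B, WNT3, WNT3A, WNT6, WNT7A, WNT7B, WNT11 and WNT16 stayed below 1 FPKM. The highest of these over the 6 libraries was WNT2B, at 0.371 ± 0.120 FPKM in the control and 0.120 ± 0.0428 FPKM in normal serum. WNT7B (0.318 FPKM) and WNT11 (0.149 FPKM) stood above it in normal serum. For WNT11 this rests on replicate 1, as its normal serum libraries read 0.303, 0.114 and 0.0320 FPKM. FZD10, RSPO1, RSPO4 and the inhibitor WIF1 were also listed at 0 in all libraries. FZD5 (0.520 ± 0.0677 and 0.912 ± 0.50 FPKM), RSPO2, SFRP4, SFRP5, DKK3 and DKK4 completed the members below 1 FPKM. Of these, RSPO2 was listed at 0 in the control and averaged 0.0557 FPKM in normal serum. DKK3, grouped here with the inhibitors by name, stood at 0.142 ± 0.118 and 0.339 ± 0.114 FPKM, and its treatments overlapped.

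WNT1 was singled out for its difference between the treatments, so its values are a description and carry no test. Its protein is the founding member of the family and acts through beta-catenin. In heat-inactivated serum WNT1 was listed at 0, 0.0675 and 0.155 FPKM, and in normal serum it stood at 18, 19.0 and 22.1 FPKM. The control libraries thus sat at the detection limit, and each normal serum library lay far above all of them. The control values of replicates 2 and 3 correspond to 1 and 2 fragments, and the normal serum values to 288 and 397 fragments. Scaled for depth, the ratio over these 4 libraries was 218, an imprecise figure because it rests on 3 control fragments. The difference in log2(FPKM + 1) was 4.26, a scale on which the pseudocount of 1 FPKM understates the change of a gene this low in the control.

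The table lists 2 transcripts of WNT1. The transcript of 1184 bases held all of the signal in normal serum, at 19.7 ± 2.12 FPKM, while the transcript of 1068 bases, listed at 0 there, held nearly all of the few control fragments. With 3 control fragments over replicates 2 and 3 a change of transcript cannot be read from this. In the authors' deposited table the 1184-base transcript has a log2 change of 19.3, a p-value of 0.248 and a q-value of 0.376, so it did not receive the authors' mark for a low q-value. WNT1 lies on chromosome 11 of the table. In the RefSeq annotation of assembly T2T-MMU8v2.0, which may not be the build of the files, WNT1 overlaps its neighbour WNT10B, and the labels do not settle whether the libraries kept strand. Fragments from a shared stretch could therefore have been counted for either gene.

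WNT10B, which also acts through beta-catenin, stood at 1.33, 1.61 and 1.40 FPKM in the control and at 7.11, 9.05 and 11.1 FPKM in normal serum. It rose 6.30-fold in mean FPKM, by 2.03 on the log2(FPKM + 1) scale (SE 0.15, adjusted p = 5.12e-05). Both of its transcripts were higher, the longer from 0.940 ± 0.249 to 5.65 ± 0.732 FPKM and the shorter from 0.505 ± 0.383 to 3.45 ± 1.31 FPKM. WNT5B, a ligand of the WNT5 class that signals mostly without beta-catenin, showed a wide gap between the treatments. Its control libraries read 1.03, 1.03 and 1.36 FPKM and its normal serum libraries 14.8, 13.0 and 12.5 FPKM, an 11.8-fold rise in mean FPKM (log2 difference 2.76, SE 0.10, adjusted p = 2.84e-06). WNT4 went from 0.275, 0.267 and 0.269 FPKM to 2.76, 3.50 and 3.02 FPKM. WNT4, a ligand of kidney and reproductive tract development, passed the filter on low values only through normal serum, so its log2 difference of 1.68 is a description without a test. For WNT1, WNT10B, WNT5B and WNT4 alike, the lowest normal serum library lay above the highest control library. The treatments did not overlap, in either direction, for 62.6% of all genes tested.

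WNT5A moved the other way. This ligand, the main activator of ROR receptors, stood at 66.1, 59.3 and 58.0 FPKM in the control and at 33.0, 25.9 and 26.6 FPKM in normal serum. It fell to 0.466 of its control mean (log2 difference -1.08, SE 0.10, adjusted p = 1.57e-04), with no overlap between the treatments. WNT9A stood at 1.21 ± 0.293 and 0.897 ± 0.0456 FPKM, and its groups overlapped. It passed the filter only through the control and is given without a test.

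The ligand transcripts together summed to 66.4 ± 3.93 FPKM in the control and 75.6 ± 2.60 FPKM in normal serum, while their make-up differed widely. WNT5A held 93.3%, 91.5% and 91.5% of the summed ligand FPKM in the 3 control libraries and 42.6%, 35.6% and 34.6% in the normal serum libraries. WNT1 went from 0.116% ± 0.123 to 26% ± 2.73 of the sum, WNT5B from 1.73% ± 0.362 to 17.8% ± 1.42, and WNT10B from 2.19% ± 0.298 to 12.1% ± 2.67. A single ligand thus supplied nearly all WNT transcript in the control, against 4 ligands at 9.10 FPKM or more in normal serum. In the control order, WNT10B, WNT9A and WNT5B followed WNT5A at 1.45, 1.21 and 1.14 FPKM and did not differ beyond their spread. In normal serum the order was WNT5A, WNT1, WNT5B, WNT10B and WNT4, at 28.5, 19.7, 13.4, 9.10 and 3.09 FPKM, and the value ranges of these 5 did not overlap.

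**Figure D1:**
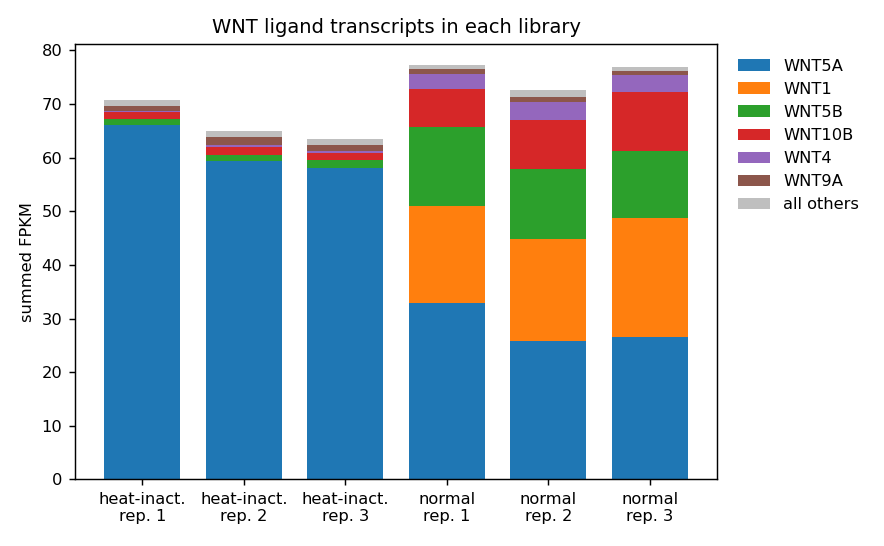
Summed FPKM of the 19 WNT ligand genes in each of the 6 libraries, 1 bar per library, with the 6 ligands that reached 1 FPKM in colour and the others in grey. WNT5A fills most of each control bar, and WNT1, WNT5B, WNT10B and WNT4 take up the larger part of each normal serum bar at a similar total height.

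The carrier WLS, needed for the release of WNT proteins, fell from 116, 97.7 and 105 FPKM to 67.1, 67.5 and 72.2 FPKM. Its log2 difference was -0.61 (SE 0.08, adjusted p = 4.94e-04). PORCN, the acyltransferase, was low in both treatments, at 2.88 ± 0.414 and 1.99 ± 0.544 FPKM, and was not past the threshold (adjusted p = 0.0750). It passed with libraries brought to the same total (adjusted p = 0.0247), with both replicate 1 libraries sharing a term (0.0441) and without normal serum replicate 1 (0.0302), over a range of 0.0247 to 0.287.

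Among the frizzled receptors the 3 most abundant all fell. FZD7 stood at 120, 92.7 and 99.3 FPKM in the control and at 42.1, 37.8 and 38.7 FPKM in normal serum, a fall to 0.380 of the control mean (log2 difference -1.37, SE 0.10, adjusted p = 5.25e-05). FZD2 went from 97.2, 72.5 and 72.1 FPKM to 47.4, 38.2 and 36.7 FPKM (log2 difference -0.96, SE 0.14, adjusted p = 0.00111). The replicate 1 library was the highest of its treatment for both receptors, and the treatments did not overlap. FZD6, a receptor of polarity signalling, went from 32.8, 28.8 and 30.9 FPKM to 19.9, 17.3 and 18.3 FPKM (log2 difference -0.71, SE 0.08, adjusted p = 2.89e-04).

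The 2 main transcripts of FZD6 were divided differently in the replicate 1 libraries. The 3749-base transcript held 57.0% of FZD6 in control replicate 1 against 82.0% and 81.8% in the other control libraries, and 43.1% in normal serum replicate 1 against 70.8% and 80.5%. Its share therefore followed the replicate 1 libraries more than the treatment, and only the gene sum is used here. FZD1 fell from 2.99 ± 0.184 to 1.77 ± 0.296 FPKM (adjusted p = 0.00643).

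FZD8 was the one frizzled receptor past the threshold in the upward direction. It stood at 1.95, 0.803 and 0.702 FPKM in the control and at 4.27, 2.60 and 2.41 FPKM in normal serum (log2 difference 0.95, SE 0.25, adjusted p = 0.0158), with replicate 1 the highest in each treatment. The call ended without control replicate 2 (adjusted p = 0.0523) or replicate 3 (0.0519), the upper end of a range from 5.18e-04 to 0.0523. FZD3, at 1.5 ± 0.463 and 2.17 ± 0.156 FPKM, and FZD4, the receptor of retinal vessel growth, at 2.76 ± 0.332 and 2.24 ± 0.207 FPKM, were not past the threshold (adjusted p = 0.0801 and 0.137). FZD3 passed with quantile normalization (0.0310), with a term for the replicate 1 libraries (0.0442) and without control replicate 1 (0.0221), over a range of 0.0221 to 0.221. FZD4 passed on rescaling to the same total (0.0401), over a range of 0.0401 to 0.613.

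The summed frizzled level was 224 ± 32.0 FPKM in the control and 109 ± 11 FPKM in normal serum. FZD7 and FZD2 together with FZD6 made up nearly all of it in every library. The share of FZD7 was 46.4% ± 0.740 in the control and 36.4% ± 1.57 in normal serum, while FZD2 held 35.8% ± 1.47 and 37.3% ± 1.70.

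**Figure D2:**
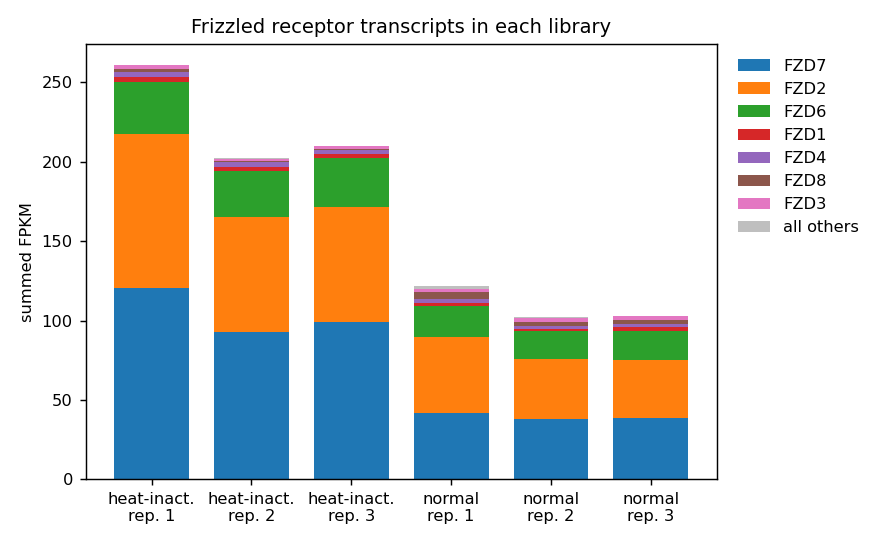
Summed FPKM of the frizzled receptor genes in each of the 6 libraries, 1 bar per library, coloured by receptor. The control bars reach from 202 to 261 FPKM and the normal serum bars from 102 to 122 FPKM, with FZD7, FZD2 and FZD6 filling most of each.

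All 4 co-receptors fell. LRP6, one of the beta-catenin co-receptors, went from 9.37, 8.32 and 8.66 FPKM to 4.41, 4.58 and 4.89 FPKM (log2 difference -0.80, SE 0.08, adjusted p = 1.91e-04). LRP5, the more abundant of the pair and known for its role in retinal vessels, went from 44.7, 40.4 and 40.1 FPKM to 31.5, 30.9 and 29.9 FPKM (log2 difference -0.43, SE 0.06, adjusted p = 0.00131). Neither showed any overlap between the treatments. ROR2, a receptor for WNT5A, went from 27.7, 22.9 and 24.3 FPKM to 15.6, 14.3 and 15.2 FPKM (log2 difference -0.69, SE 0.08, adjusted p = 4.22e-04). ROR1 was lower at 1.39 ± 0.207 FPKM against 2.30 ± 0.320 FPKM (adjusted p = 0.0167). The ROR1 call ended with quantile normalization (0.0735), within replicates 2 and 3 alone (0.0642) and without control replicate 1 (0.0501) or replicate 3 (0.0602), over a range of 0.00606 to 0.0735.

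DKK1, which binds LRP5 and LRP6 and blocks them, was the most abundant member in both treatments and ranked 171 and 157 by level among all genes. It stood at 919, 781 and 771 FPKM in the control and at 1186, 1073 and 965 FPKM in normal serum, a 1.30-fold rise (log2 difference 0.38, SE 0.10, adjusted p = 0.0142). The treatments did not overlap, but the highest control library lay close to the lowest normal serum library. The call ended on rescaling to the same total (0.0806), with quantile normalization (0.270) and without control replicate 2 (0.0520) or replicate 3 (0.0515), over a range of 0.00125 to 0.270.

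SFRP2, a frizzled-related protein that binds WNTs, was the secreted inhibitor with the widest gap between the treatments. Its control libraries stood at 26.5, 31.0 and 32.4 FPKM and its normal serum libraries at 101, 86.5 and 94.8 FPKM, a 3.14-fold rise (log2 difference 1.62, SE 0.09, adjusted p = 1.79e-05). SFRP1, of the same family, read 76.6, 53.4 and 68.9 FPKM against 64.3, 62.7 and 64.5 FPKM. The control values of SFRP1 straddled the normal serum values, and its log2 difference of -0.04 had a 95% interval of -0.33 to 0.25 (adjusted p = 0.812). SFRP1 and SFRP2 thus stood at 66.3 and 30.0 FPKM in the control and at 63.8 and 94.0 FPKM in normal serum, so their order was exchanged. DKK2 was lower at 5.64 ± 0.0757 FPKM against 7.33 ± 0.805 FPKM (adjusted p = 0.0195). That call ended with quantile normalization (0.0590), within replicates 2 and 3 alone (0.0970) and without control replicate 1 (0.0616) or 3 (0.0685) or normal serum replicate 3 (0.0516), over a range of 0.00447 to 0.0970.

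RSPO3, an R-spondin needed for vessel development, was the one R-spondin above 1 FPKM. It stood at 13.0, 16 and 17.5 FPKM in the control and at 19.5, 21.0 and 19.9 FPKM in normal serum (log2 difference 0.37, SE 0.11, adjusted p = 0.0208). The call ended on rescaling to the same total (0.137) and without normal serum replicate 2 (0.0643) or replicate 3 (0.0509), over a range of 0.00720 to 0.137. The scaffold AXIN1 rose from 12.9, 14.8 and 13.4 FPKM to 21.1, 22.7 and 22.6 FPKM (log2 difference 0.66, SE 0.07, adjusted p = 3.02e-04). AXIN2, whose transcription is a widely used readout of beta-catenin activity, stood at 1.51, 1.33 and 1.43 FPKM in the control and at 0.816, 0.986 and 1.09 FPKM in normal serum. AXIN2 passed the filter only through the control, so its log2 difference of -0.30 is a description without a test. Every AXIN2 value in normal serum lay below the control.

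**Figure D3:**
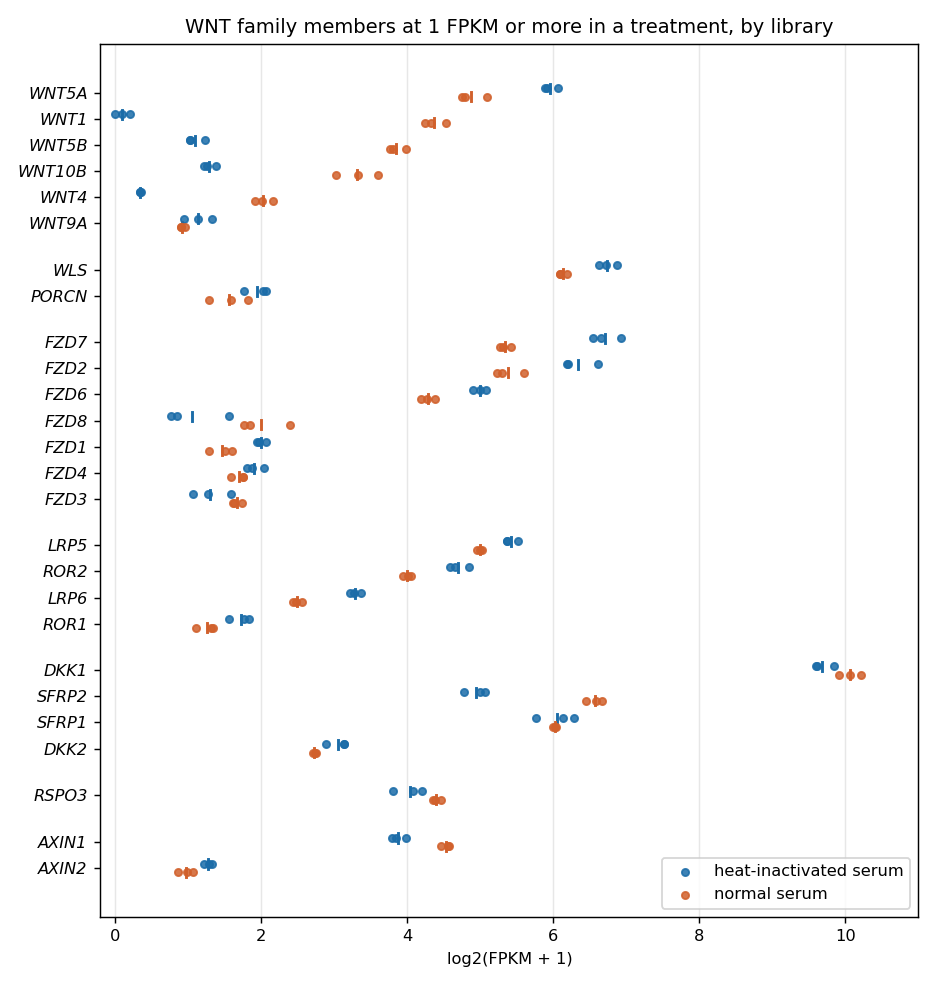
Level of each of the 26 members with a mean of at least 1 FPKM, as log2(FPKM + 1), with 1 point per library, a short line at each mean, and members grouped by role. WNT1, WNT5B, WNT10B, WNT4 and SFRP2 lie to the right in normal serum, and WNT5A, WLS, FZD7, FZD2, FZD6 and the co-receptors to the left.

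Of the 25 tested members other than WNT1, 8 were higher in normal serum, 11 lower and 6 not past the threshold (limma, adjusted p under 0.05). Over all 11776 genes tested 54.1% were called, 27.9% higher and 26.2% lower, and the members were taken up with this comparison known, so nothing is read from their share. WNT4 is among the 8 although it passed the filter only through normal serum, and WNT9A and AXIN2, not past the threshold, passed it only through the control. By role, 2 of 4 tested ligands other than WNT4 were higher and 1 lower, 1 of 7 frizzled receptors higher and 4 lower, and 0 of 4 co-receptors higher and 4 lower. Of 4 secreted inhibitors 2 were higher and 1 lower. The median log2 difference of the 25, with WNT4, WNT9A and AXIN2 included, was -0.30, against 0.01 over all genes tested. The treatments did not overlap for 22 of the 25, against 62.6% of all genes tested. The total used for rescaling was summed over transcripts of at least 300 bases. Rescaling to the same total moved the median of all genes from 0.01 to -0.14 and the members to 6 higher and 14 lower. Within replicates 2 and 3 alone 8 were higher and 9 lower. All of the authors' marks went to a transcript of 7 members in the authors' deposited table: WNT4, WNT5B, WNT10B, FZD8 and SFRP2 as higher, and WNT5A and FZD7 as lower.

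**Figure D4:**
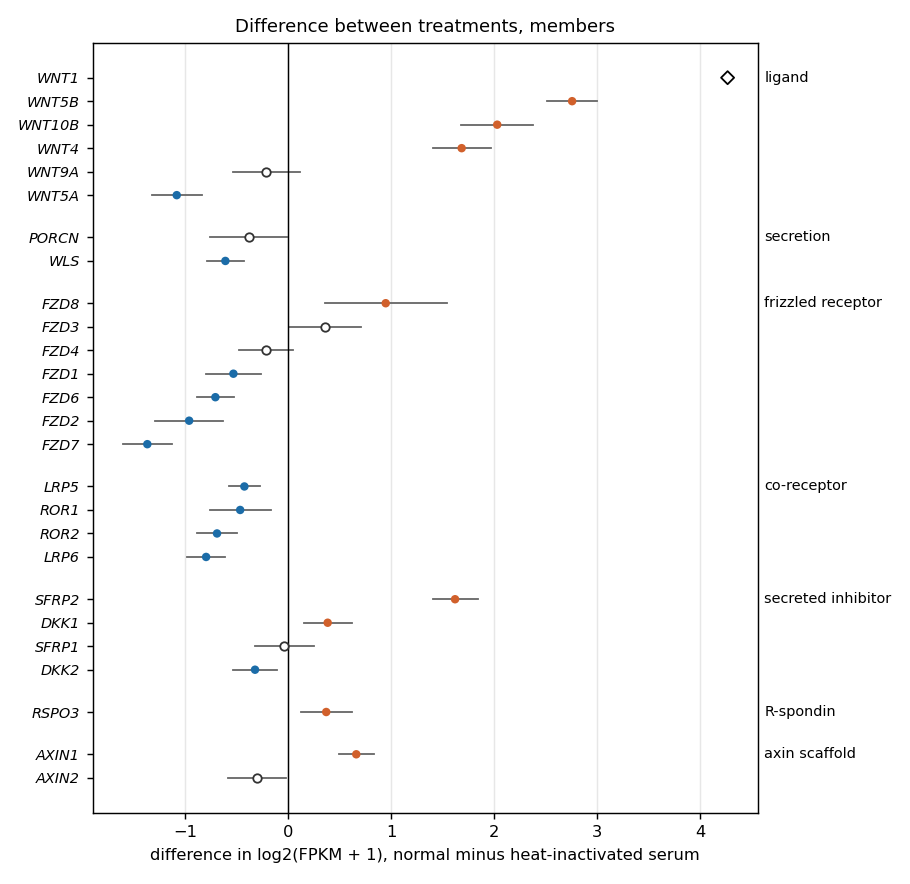
Difference in log2(FPKM + 1) between normal and heat-inactivated serum for the 25 tested members and WNT1, by role, with 95% intervals from limma. Filled points passed the threshold, open circles did not, and the open diamond is WNT1, shown without a test at 4.26. WNT4 passed the filter only through normal serum, and WNT9A and AXIN2 only through the control. The 4 co-receptors all lie left of 0, and WNT5B, WNT10B, WNT4 and SFRP2 lie above 1.6.

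The other genes of the pathway were taken from a list of 70 by role. Of the 50 that reached a mean of 1 FPKM, 12 were higher and 20 lower, 18 did not pass, and the median log2 difference was -0.14. All genes tested had 27.9% higher, 26.2% lower and a median of 0.01, and nothing particular to the groups below is read from their counts. NOTUM, RNF43 and PRICKLE3, counted as lower, passed the filter only through the control. Rescaling to the same total made this 6 higher and 27 lower, and changed the calls over all genes from 51.6% higher to 33.0% higher. Of 10 surface modulators 0 were higher and 6 lower. They included CTHRC1, a secreted protein that stabilises WNT complexes with polarity receptors, from 183 ± 11.8 to 88.4 ± 4.08 FPKM, and the R-spondin receptor LGR4, from 31.6 ± 3.63 to 16.3 ± 1.42 FPKM. GPR124, the endothelial co-activator of WNT7 signals, fell from 51.4 ± 4.13 to 27.4 ± 2.24 FPKM, and the polarity co-receptor PTK7 from 64.4 ± 0.479 to 39.5 ± 3.56 FPKM. The adjusted p of these 4 genes lay between 3.30e-05 and 3.20e-04.

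Planar polarity genes had 2 of 10 higher and 6 lower, against 27.9% and 26.2% of all genes tested. PRICKLE3, among the lower, passed the filter only through the control. The formin gene DAAM1, which links Dishevelled to the cytoskeleton, fell to 0.420 of its control mean (adjusted p = 2.91e-04), DAAM2 to 0.576 (4.96e-04) and PRICKLE1, a core polarity protein, to 0.573 (2.19e-04). CELSR2, a polarity cadherin, rose from 8.26 ± 0.884 to 11.3 ± 0.754 FPKM (adjusted p = 0.00706), a call that ended on rescaling to the same total (0.0618, in a range from 0.00412).

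Of 13 cytoplasmic genes 6 were higher and 2 lower, where 27.9% and 26.2% of all genes tested were. CTNNB1, which encodes beta-catenin itself, stood at 258, 230 and 263 FPKM in the control and at 435, 439 and 413 FPKM in normal serum (log2 difference 0.78, SE 0.07, adjusted p = 1.11e-04). The kinase genes GSK3A and CSNK1D, whose products phosphorylate pathway proteins, rose 1.5-fold and 1.48-fold (adjusted p = 6.22e-04 and 1.97e-04), and DVL2, one of the Dishevelled adaptors, fell from 22.9 ± 1.16 to 16.5 ± 1.76 FPKM (adjusted p = 0.00373). Nuclear genes had 2 of 11 higher and 3 lower. The co-repressor genes TLE3 and TLE4 went in opposite directions, TLE3 from 15.6 ± 1.15 to 29.4 ± 0.797 FPKM and TLE4 from 9.15 ± 0.236 to 4.63 ± 0.649 FPKM (adjusted p = 7.59e-05 and 3.72e-04). TCF7L1, a mostly repressive TCF factor, and BCL9L, a beta-catenin co-activator, fell to 0.714 and 0.717 of their control means (adjusted p = 0.00107 and 0.00381).

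LEF1, a DNA-binding partner of beta-catenin and also one of its targets, was below the filter of 1 FPKM over all libraries. It stood at 0.0278, 0.130 and 0.0546 FPKM in the control and at 1.52, 1.23 and 1.37 FPKM in normal serum. The control values of replicates 2 and 3 rest on 7 fragments and the normal serum values on 104. Since LEF1 would enter a test only through normal serum, its values are given without one. LGR5, a surface modulator that is also a target of beta-catenin, went the other way, from 8.74 ± 1.18 to 4.51 ± 0.609 FPKM. It is among the lower surface modulators counted above. TCF7, another target, stayed below 1 FPKM, at 0.179 ± 0.0583 and 0.378 ± 0.179 FPKM.

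Of 6 feedback and target genes 2 were higher and 3 lower, against 27.9% and 26.2% of all genes tested. The lower ones include RNF43 and NOTUM, which passed the filter only through the control. CCND1, cyclin D1, rose from 133, 129 and 120 FPKM to 250.0, 254 and 283 FPKM (log2 difference 1.03, SE 0.07, adjusted p = 3.95e-05), and MYC from 119 ± 3.79 to 191 ± 8.19 FPKM (adjusted p = 1.03e-04). Both respond to many signals besides WNT. TNFRSF19, a receptor gene induced by beta-catenin, fell from 10.8 ± 1.21 to 6.09 ± 1.00 FPKM (adjusted p = 0.00223). RNF43, a ligase that removes frizzled receptors, stood at 1.27 ± 0.0402 and 0.765 ± 0.0684 FPKM, and NOTUM, a secreted enzyme that strips the lipid from WNTs, at 1.29 and 0.798 FPKM. Both are given without a test because of the filter, and NOTUM was picked with its values already seen. ZNRF3, not past the threshold, stood at 2.58 ± 0.170 and 2.59 ± 0.703 FPKM. NKD1, a feedback inhibitor, was listed at 0 in all libraries.

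**Figure D5:**
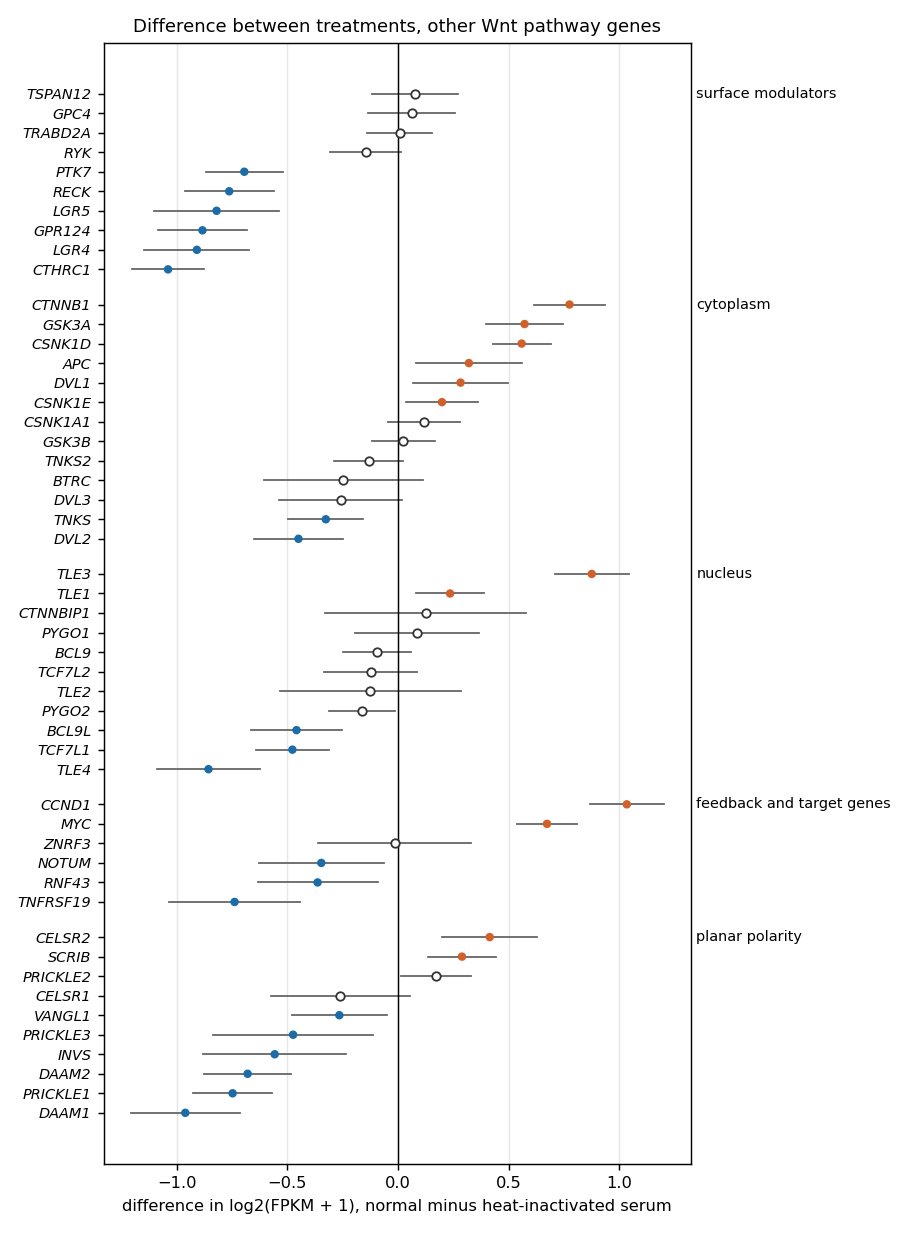
Difference in log2(FPKM + 1) between normal and heat-inactivated serum for the 50 other Wnt pathway genes tested, by role, with 95% intervals from limma. Filled points passed the threshold and open circles did not. Among the filled points, NOTUM, RNF43 and PRICKLE3 passed the filter only through the control. No surface modulator past the threshold lies right of 0, and CTNNB1, TLE3 and CCND1 lie farthest right in their groups.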

How the data were processed

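There were 3 control and 3 normal serum libraries of polyadenylated RNA, with treatments and replicate numbers taken from the labels. The submitters' processing notes name TopHat2 2.0.7 and Cufflinks 2.1.1 with Cuffdiff 2.1.1. No genome build is given in the sources used here. The authors deposited FPKM values per transcript and library. Their table also holds the authors' FPKM per treatment, log2 fold changes, p-values and q-values, which appear only where the authors' deposited table is named. Values were summed over the 44605 transcripts by symbol. A table of gene names supplied symbols for 381 of 7008 unnamed identifiers, 125 of them symbols already present. The 49 members have 72 transcripts, none from these identifiers. These sums do not separate isoforms, nor near-identical copies or overlapping genes.

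Since FPKM are not counts, limma 3.58.1 (R 4.3.3) was run on log2(FPKM + 1) of the 11776 genes averaging 1 FPKM or more over the 6 libraries, with trended empirical Bayes variances, no batch term, and Benjamini-Hochberg adjustment over all genes tested. A gene is said to change where its adjusted p is under 0.05. The test was also run on simulated data with independent noise and few changed genes, unlike these data, so nothing is read from it. Fragments were read from low values of single-transcript genes, whole within 0.1 fragments for 100% of values in replicates 2 and 3 and for 46.3% and 42.5% in the replicate 1 libraries. The members and gene lists were chosen with earlier results of these data known. All members averaging 1 FPKM or more in a treatment are named, and the highest of the others in each role. Of the other pathway genes, up to 4 changed genes with the smallest adjusted p in each group are named, and CTNNB1, CCND1, MYC, LEF1 and NKD1. LGR5, TCF7 and ZNRF3 were added with their values already seen. Alternatives varied the pseudocount, filter, scaling, variance model, summing of transcripts, replicate terms and libraries included. Rescaling brought the libraries to the same summed FPKM over transcripts of at least 300 bases.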

Additional observations from a re-analysis of the deposited data

How the results depend on the processing

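Of the 25 tested members other than WNT1, 15 kept their call and direction in every alternative run, among them WNT5A, WNT5B, WNT10B, WLS, FZD1, FZD2, FZD6, FZD7, LRP5, LRP6, ROR2, SFRP2 and AXIN1. The 15 also include WNT4 and WNT9A, which passed the filter through a single treatment and are given without a test above. The number of members past the threshold lay between 15 and 22 against 19, that of the other pathway genes between 25 and 35 against 32, and that of all genes between 5157 and 7047 against 6371. Of the 20 pathway genes in the fit that were named by the rule above, 18 kept their call and direction, the exceptions being CELSR2 and RNF43. RNF43 is given without a test above. SFRP1, which was not past the threshold, changed sign within replicates 2 and 3 alone (log2 difference 0.0671) and ranged from -0.184 (without control replicate 2) to 0.0721 (without control replicate 1) as libraries were left out. The log2 difference of WNT1 was 6.92 with a pseudocount of 0.1 and 5.14 with 0.5, and stayed between 4.18 and 4.37 otherwise. Replicate numbers are not said to mark shared cultures, and the correlations of same-numbered libraries' deviations from their treatment means, across genes, were 0.192, 0.0333 and 0.00605. Control replicates 2 and 3 each correlated best with another number. With the replicate number as a replicate block, 19 members were past the threshold, 8 higher and 11 lower, as without it. All genes past the threshold numbered 6756. Depth limits the members under 1 FPKM, which rest on few fragments: between 0 and 53 over the 4 libraries where fragments could be read.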

Other observations

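The genes that flank WNT1 in the RefSeq annotation of assembly T2T-MMU8v2.0 were also read, 5 protein-coding genes on each side, a set chosen after the WNT1 values were seen. RND1, a small GTPase gene, stood at 0.969 ± 0.783 FPKM in heat-inactivated serum and 3.41 ± 0.987 FPKM in normal serum, given without a test because it passed the filter only through normal serum. DDN, next to WNT1 on the side away from WNT10B, stood at 0.222 ± 0.0609 and 0.870 ± 0.290 FPKM, below the level tested. FKBP11 (120 ± 5.83 to 172 ± 0.670 FPKM), ARF3 (129 ± 7.74 to 170 ± 13.6 FPKM) and RHEBL1 (2.98 ± 0.159 to 4.50 ± 0.381 FPKM) were higher. PRKAG1 was lower (51.7 ± 0.832 to 44.3 ± 1.25 FPKM). Over all genes tested 27.9% were higher and 26.2% lower, and an effect of the region was not tested. KMT2D (log2 difference -0.03) and CCDC65 (1.07 ± 0.376 and 1.40 ± 0.292 FPKM) did not pass the threshold, and DHH stood at 0.289 ± 0.119 and 0.784 ± 0.0264 FPKM.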
